A study of Mus musculus with 3 samples.

Results

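The mRNAs described here encode the nuclear subunits of the oxidative phosphorylation complexes, taken by symbol: every gene whose symbol begins with Nduf, Uqcr, Atp5, Cox4, Cox5, Cox6, Cox7 or Cox8, together with Sdha, Sdhb, Sdhc, Sdhd and Cyc1. Of 97 protein-coding genes that meet this rule, 90 were listed in at least 1 library, among 13224 named genes listed in all, and 87 of the 90 held at least 1 cytosine that could be tested. By complex, the 90 fell into 36 genes of complex I, 8 complex I assembly factors whose symbols share its prefix, 4 genes of complex II, 9 of complex III, 16 of complex IV and 17 of complex V. The prefix therefore also takes in assembly factors, which are not subunits. They are given apart in the values by complex but are part of every total of the list.

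The study measured, at each cytosine of poly(A)+ RNA, the share of reads that stayed cytosine after bisulfite treatment. The 3 libraries form 1 group: mouse embryonic stem cells on the J1 background with the genotype Tet1-/-,Tet2-/-,Tet3-/-, grown with leukaemia inhibitory factor on mouse embryonic fibroblast feeders that were depleted by letting them attach to dishes before harvest. No wild-type library was analysed here, so nothing below compares genotypes. The labels do not say whether the 3 samples were separate cultures, so the spread between them, and the p-values that rest on it, may be technical.

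Oxidative phosphorylation passes electrons from NADH through complex I, or from succinate through complex II, to ubiquinone, then through complex III and cytochrome c to complex IV, which reduces oxygen. The proton gradient that this builds drives ATP synthesis by complex V. Most subunits are made from nuclear mRNAs in the cytosol and imported into mitochondria, where they join a few subunits encoded by mitochondrial DNA. Bisulfite turns unmodified cytosine into uracil, whereas 5-methylcytosine and 5-hydroxymethylcytosine both resist. An unconverted read can thus carry either modification, or be an unmodified cytosine that escaped the reaction, and the measurement does not separate these.

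The 3 libraries held a summed cytosine coverage of 151362866, 142608298 and 139884444 reads, and the library-wide unconverted share was 1.53%, 1.45% and 1.41%. That share is the background against which each value below is set. Embryonic stem cell markers took 0.502% to 0.530% of coverage, with all 10 of 10 listed but Nanog and Esrrb at 0.000188% and 3.77e-05% or less, whereas feeder fibroblast markers took 0.0574% to 0.0768%, with 7 of 10 listed and Lum, Dcn and Postn not listed. The fibroblast share was highest in replicate 1 and lowest in replicate 3, and its part in the results below was not tested. Reads were listed on Tet1 at 16 to 19 cytosines and across most of the length of Tet2 and Tet3. The labels do not give the deleted exons, so this does not check the genotype.

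The oxidative phosphorylation mRNAs were abundant in these cells. Together they took 1.79%, 1.84% and 1.89% of all cytosine coverage in replicates 1, 2 and 3 (1.84 ± 0.0484%, SD, n = 3). To compare genes per length, the level of a gene was taken as its mean coverage per listed cytosine divided by that mean over the whole library, here called relative coverage. A cytosine was listed only where at least 3 reads covered it, so the level of a sparsely covered mRNA is overstated. Among genes with at least 20 listed cytosines in each library, the median relative coverage was 2.62 for 88 of the oxidative phosphorylation genes and 0.348 for all 10108 genes. Of the 88, 81 lay above the median of all genes and 58 lay in the highest 10%, above 1.62. In bulk RNA, fewer cells that express a gene and less of its RNA per cell cannot be told apart.

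Within complex I, levels spanned a wide range around a median of 1.99. Ndufa2, an accessory subunit of the arm that reaches into the matrix, was highest, with a relative coverage of 11.7, 12.2 and 13.1 in the 3 libraries (12.4 ± 0.742). Ndufv3, an accessory subunit of the NADH-binding module, was lowest among those with enough listed cytosines, at 0.124, 0.138 and 0.134 (0.132 ± 0.00704), but its reads may be split between more than 1 listed transcript model. The core subunit Ndufs1, which carries iron-sulfur clusters, was listed at 58 cytosines with at most 7 reads on any of them, also with more than 1 listed model. The assembly factors had a median of 0.438. They ran from Ndufaf1, which acts in assembly of the membrane arm, at 0.211 ± 0.00604, to Ndufaf8 at 2.72 ± 0.0902, whose 3 values of 2.65, 2.82 and 2.70 all lay above every value of the other 7 assembly factors.

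The 4 genes of complex II, succinate dehydrogenase, were close together. Sdha, the flavoprotein that oxidises succinate, was highest at 3.22, 3.08 and 3.09 (3.13 ± 0.0795), and Sdhc, a membrane anchor, was lowest at 1.32, 1.26 and 1.20 (1.26 ± 0.0581). No neighbouring pair in this order had overlapping ranges. In complex III the median was 4.55. Uqcrq, a small subunit, stood at 22.3, 22.7 and 24.9 (23.3 ± 1.41), above Uqcr10, another small subunit, at 12.2 ± 0.999. Uqcrc2, a core protein of the matrix side, was lowest at 1.06 ± 0.0737.

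Complex IV held the most abundant of these mRNAs. Cox6c, a small subunit of the membrane, had a relative coverage of 63.2, 75.0 and 71.6 (69.9 ± 6.08), which ranked 12 among 10108 genes. The 11 ubiquitous subunits of complex IV had a median of 4.999, and the lowest of them, Cox7c, was at 2.50. That level rests on positions 6 to 139 of Cox7c, which also has 1 pseudogene of the same stem. The tissue-restricted or alternative forms were far lower: 4 of them with enough cytosines had a median of 0.365, from Cox6b2, known as the testis form, at 0.182 ± 0.0351 to Ndufa4l2 at 0.541 ± 0.0857. Cox6b2 has 4 listed transcript models, between which its reads may be split. Cox4i2, an alternative form of subunit 4, was listed at 12 cytosines, in replicate 2, with at most 4 reads. Cox6a2, Cox7b2, Cox8b and Cox8c, also tissue-restricted forms, were not listed in any library, nor were Ndufb1, Ndufb4b and Ndufb4c. Not being listed says that no cytosine reached 3 reads.

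In complex V, the ATP synthase, the catalytic beta subunit Atp5b (20.5, 18.6 and 18.5, mean 19.2 ± 1.13) and its partner alpha subunit Atp5a1 (20.3, 18.7 and 17.8, mean 18.9 ± 1.25) were the highest, and their ranges overlapped. Atp5j, part of the stalk that holds the catalytic head still, was lowest at 0.290 ± 0.0464, with more than 1 listed model. The 3 genes that encode the same mature ring subunit differed, with Atp5g2 at 2.41 ± 0.156, Atp5g1 at 0.903 ± 0.0896 and Atp5g3 at 0.574 ± 0.0212, and their ranges did not overlap, though Atp5g1 has 2 listed models. The listed cytosines lay within positions 11 to 638 for Atp5g2, but 12 to 137 for Atp5g1 and 29 to 173 for Atp5g3. These levels therefore rest on unlike parts of the transcripts. Over all complexes, 41 of 82 pairs of neighbours in the order of levels had overlapping ranges, 27 of 34 in complex I but 5 of 14 in complex IV, so the order within complex I is mostly unresolved.

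**Figure D1:**
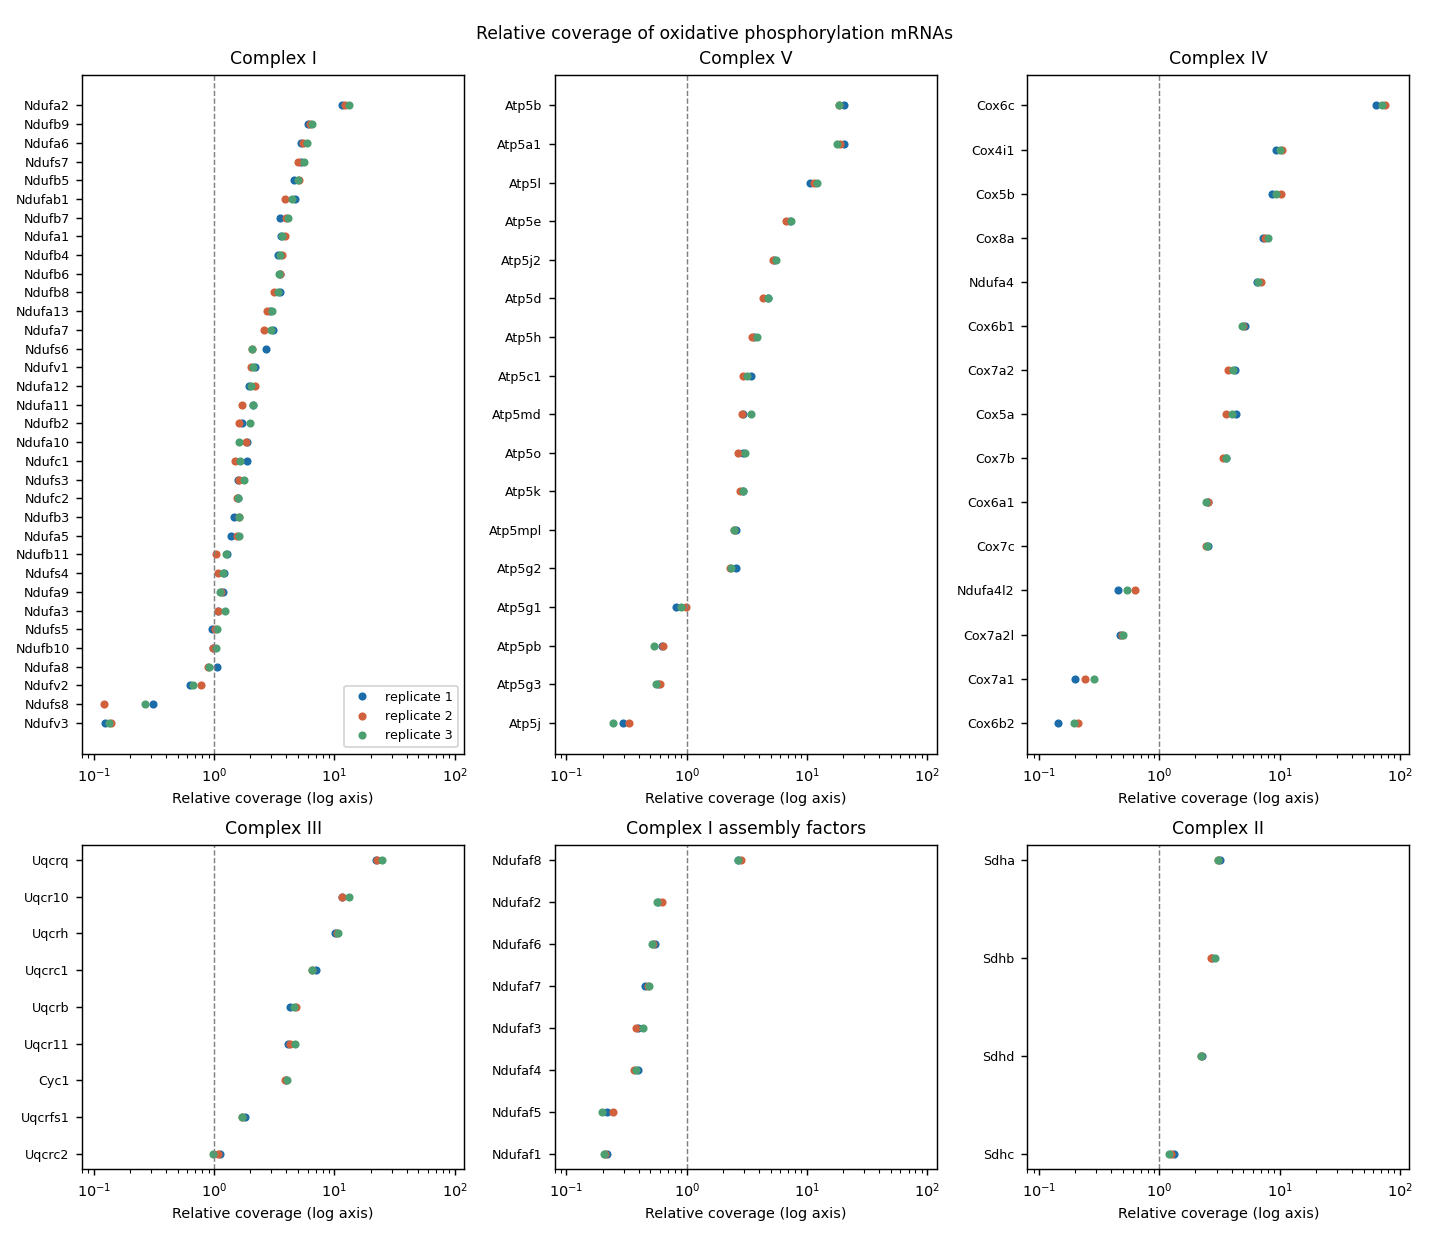
Relative coverage (mean coverage per listed cytosine over the library mean, log axis) of mRNAs with at least 20 listed cytosines in each library, by complex; each point is 1 library and the dashed line marks the library mean. Cox6c lies between 63.2 and 75.0, and the alternative forms of complex IV lie below 1.

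The unconverted share of these mRNAs, summed over every listed cytosine, was 1.528%, 1.440% and 1.401% in the 3 libraries (1.456 ± 0.0654%), against 1.533%, 1.452% and 1.406% (1.463 ± 0.0643%) over all other genes. The list was thus slightly below the other genes in each library. Both shares fell together from replicate 1 to replicate 3, so their SDs do not measure the spread of this difference, which was not tested. Complexes II and III were below the library-wide share in each of the 3 libraries, with differences of -0.113, -0.0491 and -0.105 percentage points for complex II (1.37 ± 0.0643%) and of -0.111, -0.0827 and -0.0634 for complex III (1.38 ± 0.0406%). Complex V was above it in each, by 0.0433, 0.0344 and 0.0253 (1.498 ± 0.0732%). Complexes I (1.46 ± 0.0631%) and IV (1.46 ± 0.0750%) and the assembly factors (1.46 ± 0.152%) were on both sides. These sums weight deep transcripts most, such as Uqcrc1 and Uqcrq in complex III, Cox6c in complex IV, and Atp5a1 and Atp5b in complex V.

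Single cytosines were tested where at least 10 reads covered them in each library. In each library an exact binomial test, 1-sided, set the unconverted reads against the library-wide share, Fisher's method joined the p-values of the libraries, and the Benjamini-Hochberg adjustment covered the whole table of 1639820 such cytosines. To be called a candidate, a site needed a mean share of 10% or more, an adjusted p below 0.05, and more unconverted reads than the library-wide share gives in every library. Of 11724 testable cytosines of the oxidative phosphorylation mRNAs, 5 were candidates, or 0.0426% (exact Clopper-Pearson 95% interval 0.0138% to 0.0995%), against 0.0473% of all testable cytosines. They lay in 4 of 87 genes (4.60%), against 599 of 9002 genes overall (6.65%). At this number of sites a share above or below that of all mRNAs was not detectable. Intervals here and below cover counting error only, since PCR copies were not marked.

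The highest share was in Uqcrfs1 (NM_025710.2), which encodes the Rieske iron-sulfur protein that takes electrons from ubiquinol in complex III. At position 137, counted from 1 at the 5′ end of the transcript, 18 of 51, 7 of 51 and 7 of 41 reads were unconverted, or 35.3%, 13.7% and 17.1% (22.0 ± 11.6%; adjusted p = 6.04e-24, exact binomial). At position 141 the counts were 13 of 46, 6 of 55 and 6 of 40, or 28.3%, 10.9% and 15.0% (18.1 ± 9.07%; adjusted p = 1.55e-15, exact binomial). Replicate 1 was the highest at both, and since 1 read can cover both positions they are not independent. The 15 other listed cytosines from 20 nt before position 137 to 20 nt after position 141 were at 1.34%, 1.43% and 1.502%, with 47 unconverted of 3311 reads, so the raised shares were limited to these positions within that stretch. The sites lie beside a steep rise in coverage: each library had 40 to 55 reads at these 2 positions, but 251 to 267 at position 165. The peak of the transcript was 798 summed reads.

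**Figure D2:**
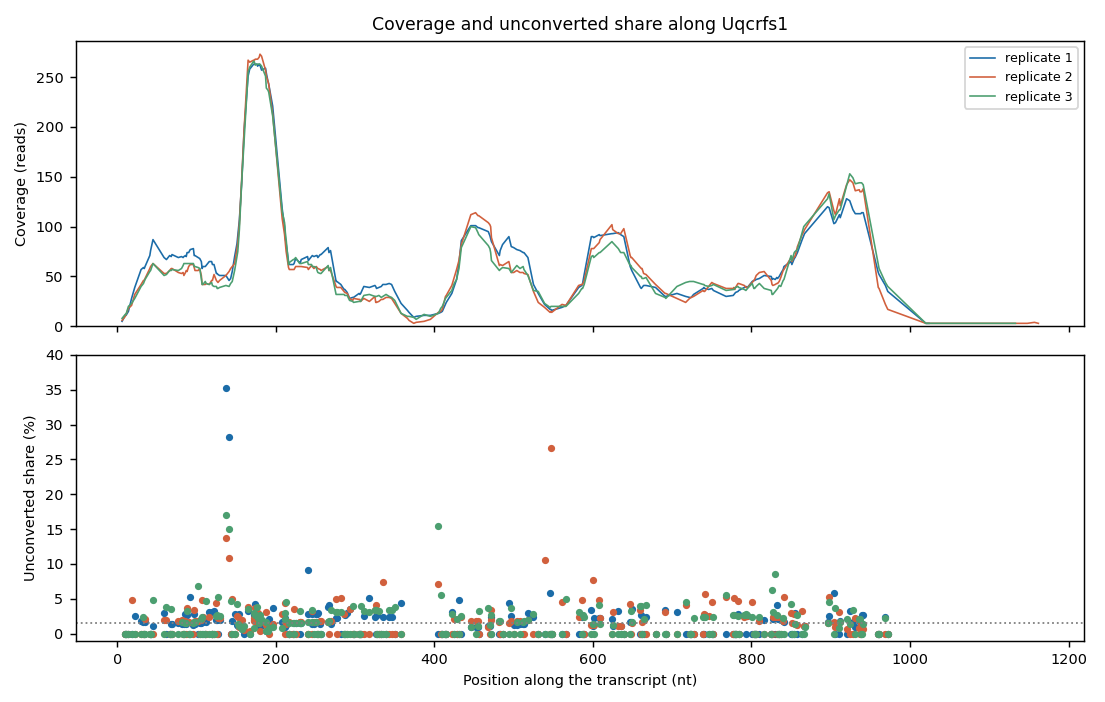
Coverage (top, reads per listed cytosine) and unconverted share (bottom, %, cytosines with at least 10 reads in each library) along the Uqcrfs1 transcript, by library; the dotted line is the mean library-wide share. Positions 137 and 141 stand above their neighbours in all 3 libraries, and other points above 10% belong to 1 library each.

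Ndufb7, an accessory subunit of the membrane arm of complex I, had its candidate at position 457 (NM_025843.3). There 5 of 43, 11 of 50 and 8 of 42 reads were unconverted, or 11.6%, 22.0% and 19.0% (17.6 ± 5.34%; adjusted p = 2.10e-14, exact binomial). This site lies near the end of the covered part of the mRNA: the median summed coverage of cytosines 50 to 100 nt downstream was 9.5 reads, against 482 the same distance upstream. A second cytosine of Ndufb7, position 468, was at 6.71 ± 1.95% from 195 reads. Ndufa10 (NM_024197.1), an accessory subunit of complex I, had the deepest candidate, position 479, with 14 of 123, 24 of 128 and 10 of 130 reads unconverted, or 11.4%, 18.8% and 7.69% (12.6 ± 5.63%; adjusted p = 1.98e-25, exact binomial). Without replicate 2 its mean was 9.54%, under the level of 10%. The Ndufa10 site had 381 summed reads, but the median 50 to 100 nt upstream was 44, against 248 the same distance downstream.

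The remaining candidate was position 46 of Uqcr10 (NM_197979.2), with 2 of 22, 4 of 25 and 6 of 28 reads unconverted, or 9.09%, 16.0% and 21.4% (15.5 ± 6.18%; adjusted p = 1.01e-05, exact binomial). Without replicate 3 its mean was 12.5% and it was no longer called. Uqcr10 is one of the deepest of these mRNAs, with up to 6747 summed reads on a cytosine, but few reads reached its start. Transcript starts could be read letter by letter from RefSeq (GRCm38.p6) where listed cytosines and the letters of the first 50 bases matched, which they did for 38 of 74 transcripts of the list that had a start window. The starts below are shown because their cytosines differed in share within a short stretch: the Uqcr10 candidate, a cytosine of Ndufb7 that did not pass the test, and the very deep start of Atp5b. They were chosen after their values were seen, are written 5′ to 3′, and capitals mark the cytosine described.
Uqcr10, chr11:4704295-4704324, minus strand, positions 21 to 50: gttcggcagtgaggcaacatgtcgtCgccg
Ndufb7, chr8:83566772-83566801, plus strand, positions 15 to 44: ggagcgaggtgacccCggctactaaagaag
Atp5b, chr10:128083327-128083356, plus strand, positions 21 to 50: atgttgagtcttgtggggcgtgtggcCtcg

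In the Uqcr10 sequence the marked cytosine is followed by G and lies after the first ATG of the window, which begins at position 39. The next cytosine, position 48, had 0 of 77 unconverted reads, which allows up to 3.90%, and the other 6 in the sequence were at 1.56% to 3.45% of 58 to 75 reads. In the Ndufb7 sequence the marked cytosine, position 30, closes a run of 4 and is followed by G. It had 2 of 51, 3 of 55 and 4 of 39 unconverted reads, or 3.92%, 5.45% and 10.3% (6.54 ± 3.31%), which did not pass the test after adjustment. The cytosine before it had 0 of 141, which allows up to 2.13%, and position 33 had 5 of 163 (3.07%). In the Atp5b sequence, which opens with an ATG, each cytosine was covered by 4174 to 6960 summed reads. The marked one, position 47, was at 3.99%, 3.20% and 3.09% (3.42 ± 0.489%), while position 30 was at 0.910%, 0.706% and 0.708% (0.775 ± 0.118%). The ranges of these 2 cytosines, 17 nt apart, did not overlap, and positions 39, 46 and 49 lay between their means, at 2.38 ± 0.444%, 2.91 ± 0.277% and 2.99 ± 0.597%. The ranges of positions 46 and 49 overlapped that of position 47.

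Over the matched starts, cytosines of the list followed by G were at 1.87%, 1.70% and 1.53% (1.70 ± 0.169%, 140 cytosines), those followed by T at 1.45 ± 0.222%, by C at 1.23 ± 0.0713% and by A at 1.11 ± 0.112%. This order rests on Atp5b, whose start is far deeper than the others: without it the means were 1.35 ± 0.128% before G, 1.08 ± 0.207% before T, 1.13 ± 0.115% before C and 1.43 ± 0.0885% before A. Over the starts of other genes the shares were 1.43 ± 0.0909% before G, 1.32 ± 0.0740% before T, 1.29 ± 0.0574% before C and 1.20 ± 0.0602% before A.

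Just under the level of 10% was position 635 of Atp5pb, the membrane-anchored b subunit of the stalk, at 12.3%, 3.53% and 14.0% (9.96 ± 5.64%), and the lowest candidate was Ndufa10 at 12.6%. Without replicate 2 the mean of the Atp5pb site was 13.2% and it was called. This site had 215 summed reads, against medians of 3 upstream and 16 downstream at 50 to 100 nt. Other cytosines of 10% or more did not pass the exact binomial test at their depth: position 12 of Ndufb10 (12.8 ± 5.21% from 46 reads, adjusted p = 0.0935), positions 130 and 135 of Ndufa5 (11.1 ± 10.2% and 10.8 ± 9.38%, adjusted p = 0.591 and 0.249 by the exact binomial test, both with no unconverted read in replicate 2), and position 583 of Ndufaf1 (10.3 ± 4.45% from 39 reads, adjusted p = 0.920 by the exact binomial test). Ndufb10 and Ndufa5 are accessory subunits of complex I.

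**Figure D3:**
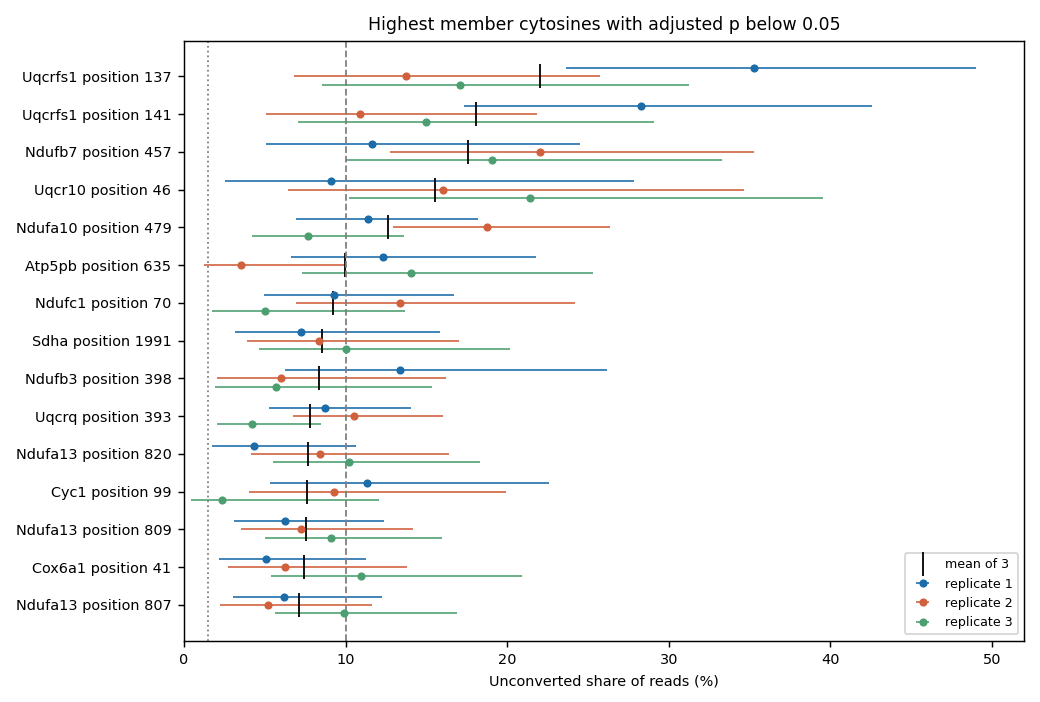
Unconverted share of reads (%) at 15 of the highest cytosines of the list with adjusted p below 0.05; points are libraries with Wilson 95% intervals for counting error, vertical ticks the means, the dotted line the mean library-wide share and the dashed line the level of 10%. The means run from 22.0% for Uqcrfs1 position 137 to 7.10% for Ndufa13 position 807, and 5 lie above 10%.

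Below candidate level, more cytosines stood above the background. With the level lowered to 5%, 46 sites passed (0.392%, against 0.203% of all testable cytosines), in 30 genes. Of the 46, 31 had an unadjusted p below 0.05 in each library by the exact binomial test. Those p-values also entered the combined p by which the 46 were picked, so this count is no separate support. Ndufa13, an accessory subunit of complex I also known as GRIM-19, held 5 of them, at positions 807, 808, 809, 810 and 820. Positions 807 to 810 are 4 cytosines in a row, at 7.10 ± 2.48%, 5.73 ± 1.42%, 7.52 ± 1.44% and 5.73 ± 0.393%, and position 820 was at 7.67 ± 3.01%. Since 1 read can cover all 5 positions, they are not independent. The cytosines within 20 nt of each site, the other sites among them, were together at 3.47% to 3.68%. The transcript without the site in question was at 1.76% to 1.77%. Ndufv1, a core subunit of complex I, and Sdha each held 3. The highest Sdha site was position 1991, at 7.25%, 8.33% and 10.0% (8.53 ± 1.39%).

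Some of these levels rest on deep coverage. Position 670 of Atp5a1 had 217 unconverted of 4171 reads, or 5.35%, 4.25% and 6.08% (5.23 ± 0.919%). Position 458 of Cox6c was at 7.24%, 5.65% and 4.47% (5.79 ± 1.39%) from 1483 reads, position 251 of Ndufa2 at 4.79%, 5.51% and 5.95% (5.42 ± 0.585%) from 1208, position 86 of Atp5md at 6.78%, 6.79% and 4.45% (6.00 ± 1.35%) from 1179, and position 328 of Atp5d, a subunit of the central stalk, at 5.81%, 5.73% and 4.99% (5.51 ± 0.455%) from 1017. Each of these values, in each library, was above 4%. Lying above the library-wide share in each library was a condition for picking these sites, so it adds no support.

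Without adjustment, 759 cytosines of the list (6.47%) had a combined p below 0.05 by the exact binomial test, against 3.32% of all testable cytosines. At any level, 195 cytosines in 51 genes had an adjusted p below 0.05, or 1.66%, against 0.499% of all testable cytosines. Of the 195, 149 were under 5%. Depth moved with this difference: the median coverage of testable cytosines was 86, 78 and 81.5 reads in the list, against 33, 30 and 29 over all, and a count of 0 at the list's medians allows a share of up to 3.49%, 3.85% and 3.68%. Compared at like coverage the shares were closer: 0 against 0.0501% from 10 to under 20 reads, 0.183% against 0.155% from 20 to under 50, 0.723% against 0.441% from 50 to under 100, and 3.33% against 2.41% at 100 or more. No test of these differences was made. By complex the calls were 70 of 2307 cytosines in complex V (3.03%), of which 34 in Atp5b and 24 in Atp5a1, 40 of 1238 in complex IV (3.23%), 29 of 1875 in complex III (1.55%), 45 of 4422 in complex I (1.02%), 11 of 1260 in complex II (0.873%) and 0 of 622 testable cytosines of the assembly factors, which were also the least covered.

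**Figure D4:**
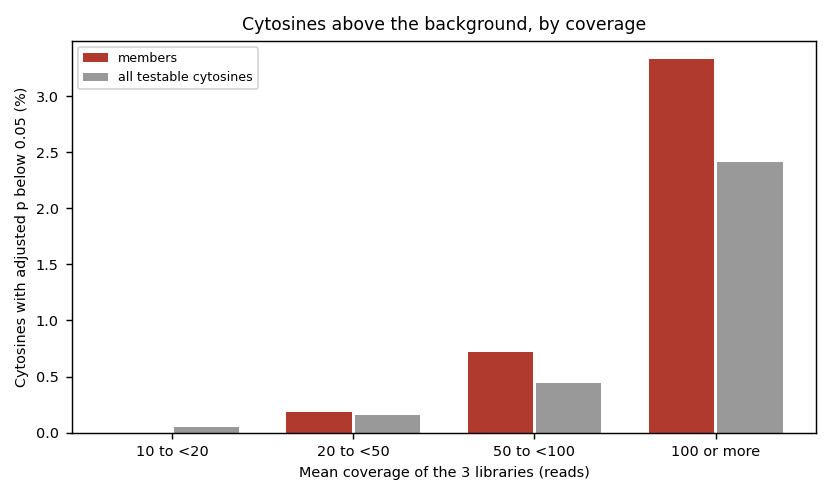
Share of testable cytosines with adjusted p below 0.05 at any level (%), by mean coverage of the 3 libraries, for the oxidative phosphorylation mRNAs (red) and all testable cytosines (grey). Both rise with coverage, to 3.33% and 2.41% at 100 reads or more.

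The share of each mRNA, summed over its listed cytosines, was also compared with its library's share. This used limma's moderated test on log2 shares with a trend on coverage, with the 3 libraries as replicates. Of the list, 81 genes had a summed coverage of at least 1000 reads in each library, among 7356 genes fitted. At an adjusted p below 0.05, 11 were higher (13.6%, against 7.61% of all genes) and 11 lower (13.6%, against 6.76%). The median log2 difference was 0.01 for the list, with 42 of 81 above 0, and -0.00400 for all genes. These calls rest on the trend: without it limma called 0 of 7356 genes in either direction. At an unadjusted p below 0.05, that limma fit had 15 of 81 genes of the list higher, against 834 of all 7356, and 9 lower, against 611. These mRNAs were deep, and the part of depth in these calls was not tested. Among genes with at least 5000 reads in each library, 19.7% of the list was higher against 12.7% of all, and 16.7% lower against 11.8%.

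Among the genes called higher, the largest differences were in Atp5pb, Atp5md and Ndufa13. Atp5pb was at 1.90%, 2.21% and 2.30%, higher than each library by 0.57 on the log2 scale (SE 0.19; limma adjusted p = 0.0421), and leaving out any 1 of the libraries ended this call. Atp5pb has 2 listed models and 1 pseudogene of the same stem, and the cytosines of its deeper model lay within positions 555 to 725. Position 635 alone held 20 of its unconverted reads, and the share summed over the libraries was 1.67% without that cytosine, with too little coverage left for the test. Atp5md, a small membrane subunit of complex V, was at 2.01%, 1.76% and 1.68% (log2 difference 0.31, SE 0.0739; limma adjusted p = 0.0033), a call that was lost without replicate 1. It was also lost, at 0.12, when all sites of 5% or more were left out of every gene. Ndufa13 was at 1.91%, 1.67% and 1.77% (0.29, SE 0.0433; limma adjusted p = 1.02e-05), called under each omission of a library. With a library left out, limma took the error of each gene almost wholly from the trend on coverage, so a kept call is weak support. In complex IV, Cox5b, Cox6b1 and Cox8a were higher, by 0.28, 0.27 and 0.21 on the log2 scale. Ndufa12, Ndufb8, Cyc1, a cytochrome of complex III, and Atp5b were also higher, by 0.22, 0.20, 0.14 and 0.08. Ndufa12 lost its call when any 1 of the libraries was left out. Uqcrfs1 was higher by 0.15 (limma adjusted p = 0.0385), but by 0.06 and no longer called once its candidate sites were left out, and its call was also lost without any 1 of the libraries.

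Among the genes called lower, the largest differences were in Cox7c, Uqcr10 and Sdhd. Cox7c, a small membrane subunit of complex IV, was at 0.883%, 1.21% and 1.05% (log2 difference -0.48, SE 0.11; limma adjusted p = 0.00327), below the background in each library. Only cytosines within positions 6 to 139 of Cox7c were listed, and it has 1 pseudogene of the same stem. Its lowest value was in replicate 1, and without that library it was no longer called (-0.33). Uqcr10, which also held a candidate site, was low in the share summed over all its listed cytosines, at 1.26%, 1.20% and 1.20% (-0.26, SE 0.0285; limma adjusted p = 1.81e-08). Sdhd, a membrane anchor of complex II, was at 1.31%, 1.24% and 1.15% (-0.24, SE 0.0421; limma adjusted p = 7.46e-05). Cox6c, the most abundant, was lower by a small amount with a small error, at 1.39%, 1.27% and 1.25% (-0.17, SE 0.0137; limma adjusted p = 2.99e-11). Ndufb5, Uqcrc1, Ndufb9, Uqcrq, Atp5e, Ndufa2 and Atp5l were lower by 0.10 to 0.16 on the log2 scale, and Atp5e, Ndufa2 and Atp5l each lost their call under at least 1 omission of a library. By complex, the calls higher and lower were 3 and 3 of 33 in complex I, 0 and 1 of 4 in complex II, 2 and 3 of 9 in complex III, 3 and 2 of 12 in complex IV, 3 and 2 of 15 in complex V, and 0 and 0 of 8 among the assembly factors, where 8 genes of modest coverage limit what could be called.

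**Figure D5:**
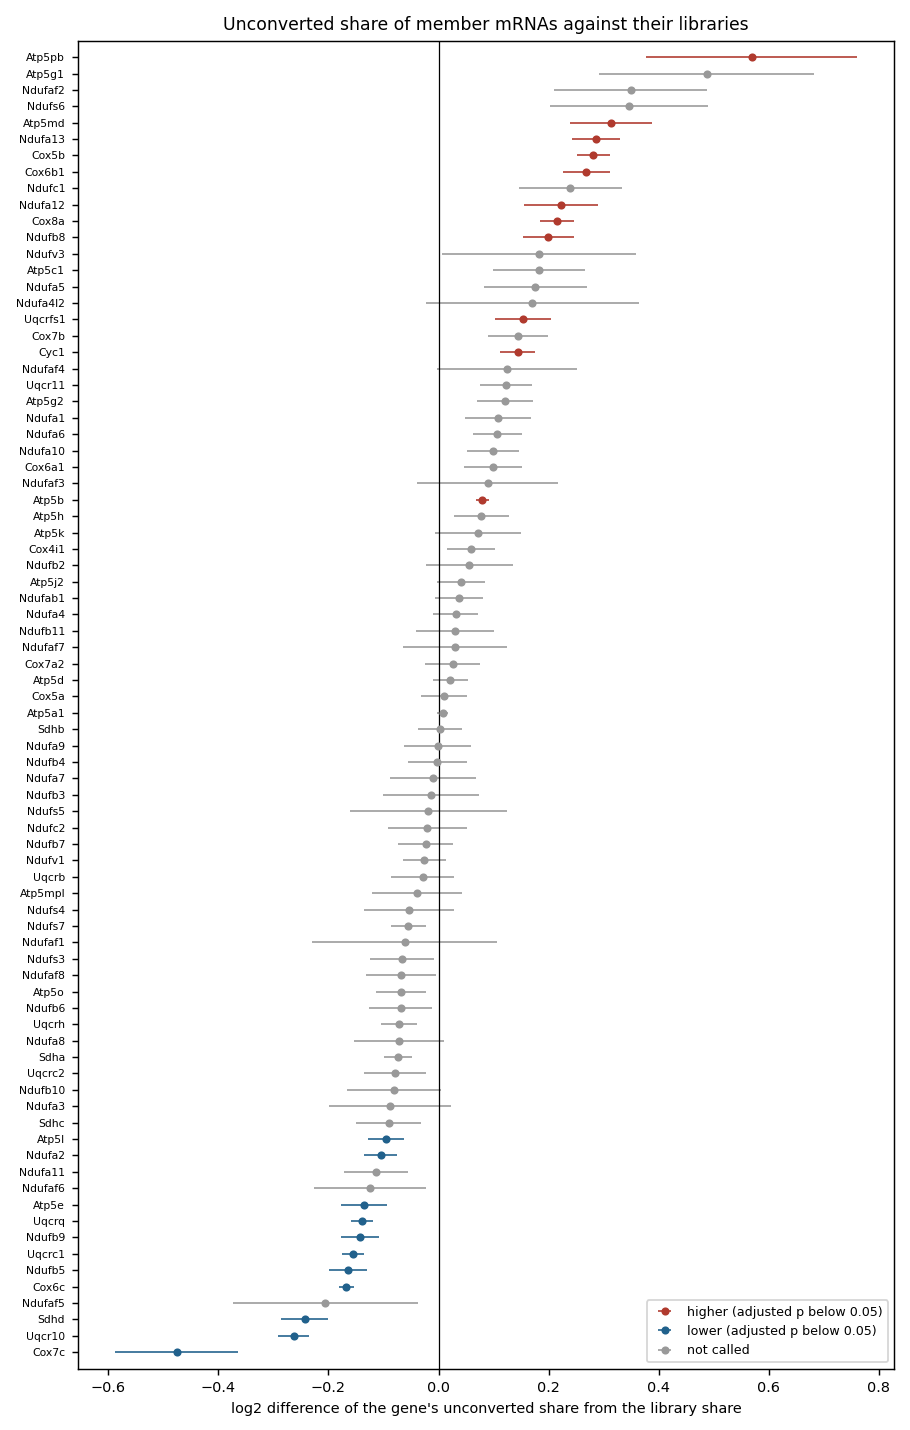
Log2 difference of each mRNA's unconverted share from the library-wide share for genes of the list fitted by limma; points are means over 3 libraries, bars 1 standard error, red and blue the calls at adjusted p below 0.05. Differences run from -0.48 for Cox7c to 0.57 for Atp5pb, and most genes lie within 0.30 of 0.

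Genes that serve the same pathway but lie outside the symbol rule were read the same way. Of 39 further assembly factors of the respiratory complexes, 36 were listed and 30 testable, with 7 candidates among 3535 cytosines, in 3 genes (0.198%, against 0.0473% of all testable cytosines). Lrpprc, which stabilises mitochondrial mRNAs, held 5 of the 7 within positions 314 to 326, with means of 11.1% to 17.7% from 65 to 107 reads each, which the same reads can cover. Atpaf1, an ATP synthase assembly factor, had 12.9 ± 2.14% at position 317, and Cox11, which delivers copper to complex IV, had 11.2 ± 4.89% at position 284. By limma 4 of 25 fitted genes of this list were higher and 1 lower, against 7.61% and 6.76% of all genes. The 13 genes of the electron carriers, cytochrome c and ubiquinone synthesis, held 1 candidate among 1307 cytosines, position 1279 of Coq2 (10.9 ± 3.97%), an enzyme of ubiquinone synthesis, and 0 of 11 were called by limma in either direction. Of 14 tricarboxylic acid cycle genes 13 were listed, with 1 candidate among 4367 cytosines: position 945 of Idh3b, a subunit of the NAD-dependent isocitrate dehydrogenase, at 15.0%, 17.8% and 15.0% (15.9 ± 1.59%) from 667 reads. That site was deeper, and its libraries closer together, than any of the 5 candidates of the oxidative phosphorylation subunits. By limma 2 of 13 tricarboxylic acid cycle genes were higher and 2 lower.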

How the data were processed

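Poly(A)+ RNA was fragmented, treated with DNase, bisulfite converted and sequenced as paired ends, per the labels' protocols. The submitters' processing notes name BSMAP and mm9. Per the file headers, the authors' deposited tables give, for each cytosine of a RefSeq transcript, the coverage as a count of reads and the unconverted fraction; their product was whole within 1e-06 at every row, and the lowest coverage was 3. Settings of mapping and counting: not given in the sources used here. Transcripts were named through the RefSeq table of GRCm38.p6 (14932 of 15021 matched). Of the 90 genes, 10 have a pseudogene of the same stem and 9 more than 1 listed model, where reads could be split. Pseudogenes were found by symbol alone.

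Sites were tested by an exact binomial test against the library share, with Fisher's combination (SciPy 1.17.1). Gene shares, log2((unconverted + 0.5)/(coverage + 1)) minus log2 of the library share, were tested with limma 3.58.1 in R 4.3.3. P-values were adjusted by Benjamini-Hochberg over the whole table. Both steps were tested on simulated data. Named were genes with a candidate, the highest and lowest level per complex, the 5 highest sites not called, the 3 largest gene calls each way, and genes not listed; the sites between 5% and 10%, the other called genes, Atp5g1 to Atp5g3 and the starts shown were chosen after their values were seen. The symbols and lists were chosen with earlier results of these data known. Alternatives varied coverage, level, combination, background, trend and library. The results of 1 gene that meets the rule are not reported here by name or in the figures, but it stays in every count and test.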

Additional observations from a re-analysis of the deposited data

How the results depend on the processing

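The 5 candidate sites of the oxidative phosphorylation mRNAs were called again with coverage minimums of 20 and 5 reads, a beta-binomial test and each gene's own share as background. They numbered 1 at a level of 20%, 46 at 5%, and 2 (Uqcrfs1 position 137 and Ndufa10 position 479) when the highest of the 3 p-values replaced Fisher's combination. All 775 candidate sites became 489 at 20 reads, 86 at 20%, 3322 at 5% and 109 with the highest p. Leaving out 1 library gave 5 to 7 candidate sites in the list, 4 or 5 of them shared, and 754 to 825 in all; without replicate 3, position 1220 of Ndufa13 (11.2%), position 70 of Ndufc1 (11.3%) and position 99 of Cyc1 (10.3%) were added. The list's share of coverage was 2.02% over testable cytosines. Without the trend limma called 0 genes of the list higher and 0 lower. Leaving out 1 library left 8 to 9 higher (9.88% to 11.1%, against 4.96% to 5.67% of all genes). It left 8 to 10 lower (9.88% to 12.3%, against 4.05% to 5.15% of all genes). In alternatives chosen after seeing the data, genes with no pseudogene of the same stem held all 5 candidate sites, as did genes with 1 listed transcript model, whose unconverted share was 1.454%. Pseudogenes under other symbols were not looked for, so this does not show that the sites are free of pseudogene reads. Leaving out every site of 5% or more gave 8 genes higher and 12 lower, of 80 that kept enough coverage. These were 10% and 15% of the list, against 5.45% and 7.6% of all genes. Atp5md and Uqcrfs1 were no longer called. The cause of these changes was not tested. With 3 libraries and a median of 78 to 86 reads, a site near the background share cannot be resolved singly. No comparison between groups was possible because the series has 1 group.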

Other observations

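Position in the mRNA and neighbouring bases gave small differences. In the first 50 nt the unconverted share of the oxidative phosphorylation mRNAs was 1.504%, 1.496% and 1.31% in the 3 libraries (1.44 ± 0.109%), against 1.39%, 1.36% and 1.27% in other genes (1.34 ± 0.0605%). Without Atp5b, whose start is very deep, it was 1.362%, 1.465% and 1.244%, below other genes in replicates 1 and 3. Beyond position 1000 it was 1.40 ± 0.0812%, against 1.43 ± 0.0597%. Cytosines with a cytosine on both sides were at 1.43 ± 0.0780% in the list and 1.32 ± 0.0657% in other genes. At 1549 of 11724 testable cytosines of the list (13.2%) no unconverted read was seen in any library, against 28.6% of all testable cytosines, which were less deeply covered. These differences were not tested.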
